A study of Homo sapiens with 6 samples.

Results

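A set of 10 genes that mark mesenchymal cells or carry TGF-beta signals were followed through a knockdown experiment in TOV21G cells, an established line from an ovarian clear cell carcinoma. They are the ligands TGFB1 and TGFB2, the receptor TGFBR2, the signal transducer SMAD3, the inhibitor SMAD7, the TGF-beta-induced matrix gene TGFBI, the transcription factors ZEB1 and SNAI2, and the mesenchymal proteins VIM and CDH2. The members were given as a list of names, and all 10 were found among the 16910 genes of the deposited table. Bulk RNA-seq was available for 6 libraries in 3 groups of 2, named NC, siGYS1 and sip53. All groups share the TOV21G line. The labels give the genotype of NC as WT, of siGYS1 as a GYS1 knockdown and of sip53 as a knockdown of the target in its name, and the role of NC as a control siRNA is taken from its name. Neither the siRNA sequences, the time after transfection nor the number of siRNAs per target is given in the sources used here, and nothing says that the replicates were separate cultures. The p-values therefore measure only the spread between these libraries, which may be technical. The submitters asked for the function of GYS1, which encodes the glycogen synthase of muscle and most other tissues.

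TGF-beta ligands are secreted in a latent form and, once released, bind TGFBR2, which recruits and activates a type I receptor. The active receptor phosphorylates SMAD2 and SMAD3, which join SMAD4 and enter the nucleus, where they act on target genes with partner factors. SMAD7 is induced by the pathway and blocks the receptor, which closes a feedback loop. In carcinoma cells the pathway is known for inducing epithelial-mesenchymal transition (EMT), in which factors such as ZEB1 and SNAI2 repress epithelial genes and proteins such as vimentin and N-cadherin (CDH2) appear.

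The stretches before a RefSeq start of SMAD3 and TGFBR2 are shown because both genes rose with sip53, while SMAD3 showed the largest called gap of the members between the knockdowns and TGFBR2 was called in both. This pair was chosen after the values were seen. Each run is the 250 bases before the most upstream RefSeq start (GRCh38.p14), 5′ to 3′ on the gene's strand, and capitals mark GC boxes, the letters GGGCGG on either strand. The SMAD3 window is chr15:67065352-67065601 (plus strand) and the TGFBR2 window is chr3:30606106-30606355 (plus strand). The SMAD3 window begins 1589 bases inside the gene as GENCODE 29 gives it, so it is upstream of the RefSeq start alone, while that of TGFBR2 ends 147 bases before the GENCODE start. No GENCODE 29 exon overlaps either window.
SMAD3: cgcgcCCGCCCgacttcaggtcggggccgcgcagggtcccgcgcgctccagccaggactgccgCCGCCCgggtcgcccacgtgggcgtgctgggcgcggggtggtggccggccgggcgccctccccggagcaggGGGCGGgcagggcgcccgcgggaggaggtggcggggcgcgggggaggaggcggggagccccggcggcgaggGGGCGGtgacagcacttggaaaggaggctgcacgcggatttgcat
TGFBR2: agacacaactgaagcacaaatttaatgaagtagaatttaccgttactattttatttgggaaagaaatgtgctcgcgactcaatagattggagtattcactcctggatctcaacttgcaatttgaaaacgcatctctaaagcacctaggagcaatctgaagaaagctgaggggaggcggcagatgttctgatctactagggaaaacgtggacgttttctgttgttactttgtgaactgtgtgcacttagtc

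The SMAD3 window was 80.8% G or C and held 4 GC boxes, while the TGFBR2 window was 40.8% G or C and held none. The median over 27305 such windows was 57.6%, and 7.75% of them held at least 4 GC boxes. Neither window held the SMAD box CAGAC, the palindrome GTCTAGAC, the AP-1 letters TGANTCA or the E2-box CACCTG, all searched on both strands. Among the 9 members with a window searched, the SMAD box stood in those of SMAD7, CDH2 and TGFB2, 2 times in each. At least 1 SMAD box was found in 37.9% of all windows and at least 2 in 8.77%. A GC box was found in 42.2% of windows, the AP-1 letters in 6.57% and the palindrome in 0.183%. The palindrome contains no complete SMAD box. The E2-box, which ZEB1 and SNAI2 are known to bind, was found among the members in the ZEB1 window alone, against 17.5% of all windows. The SMAD7 window lies in an annotated exon and is not printed. These matches describe letters in a short window and say nothing of binding.

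GYS1, the target of siGYS1, was lowered in both siGYS1 libraries. It was at 28.57 and 27.26 FPKM (fragments per kilobase of transcript, scaled to library depth) in NC replicates 1 and 2, at 1.69 and 1.67 with siGYS1, and at 30.38 and 31.39 with sip53. By edgeR's quasi-likelihood test GYS1 was at 6.29% of NC with siGYS1 (adjusted p = 1.28e-07). The libraries held 17425000 to 18097337 reads in genes. NC replicate 2 and siGYS1 replicate 1 stood apart in how gene levels followed transcript length: the rank correlation across genes between a gene's deviation and its length was -0.39 and 0.54 in these libraries, and between -0.09 and 0.03 in the other 4.

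In the GENCODE 29 annotation (GRCh38), matched by identifier, the members that rose lie on 6 chromosomes. SMAD3 is at chr15:67063763-67195195 and TGFBI at chr5:136028895-136063818. TGFBR2 is at chr3:30606502-30694142, SMAD7 at chr18:48919853-48952052 and TGFB1 at chr19:41301587-41353911. VIM (chr10:17228259-17237593) and ZEB1 (chr10:31318495-31529814) share a chromosome. All are protein-coding, and SMAD7 and TGFB1 are on the minus strand.

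The members spanned a wide range of expression. VIM, the intermediate filament of mesenchymal cells, was at 1910 ± 168 FPKM with NC (mean ± SD, n = 2) and ranked 48 of all genes by FPKM. TGFB1 followed at 47.8 ± 1.35 FPKM, SMAD3 at 41.1 ± 6.15 and TGFBI at 19.6 ± 0.099. SMAD7 was at 11.0 ± 1.53 FPKM, ZEB1 at 9.59 ± 1.48 and TGFBR2 at 8.71 ± 0.926. In that order, the libraries of SMAD7 and ZEB1 overlapped, as did those of ZEB1 and TGFBR2, while each of the higher neighbours was separated in both NC libraries.

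The other 3 members were at or near the detection limit. CDH2, the N-cadherin gene, had 13 and 2 reads with NC, 2 and 5 with siGYS1 and 10 and 8 with sip53, at most 0.23 FPKM. TGFB2 had at most 3 reads in any library. SNAI2, which encodes the repressor Slug, had 1 read in sip53 replicate 2 and no read in the other 5 libraries, where a count of 0 allows up to 3 reads, or 0.166 to 0.172 reads per 1000000 (counting error only). TGFB2 and SNAI2 were removed by the filter on low counts, so 8 of the 10 members were tested. CDH2 was tested, but its intervals were too wide to show a difference: its log2 fold change was -1.0 with siGYS1 (95% interval -2.9 to 0.9, adjusted p = 0.439) and 0.35 with sip53 (SE 0.69, adjusted p = 0.699). Without NC replicate 1 the siGYS1 value was 0.84.

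**Figure D1:**
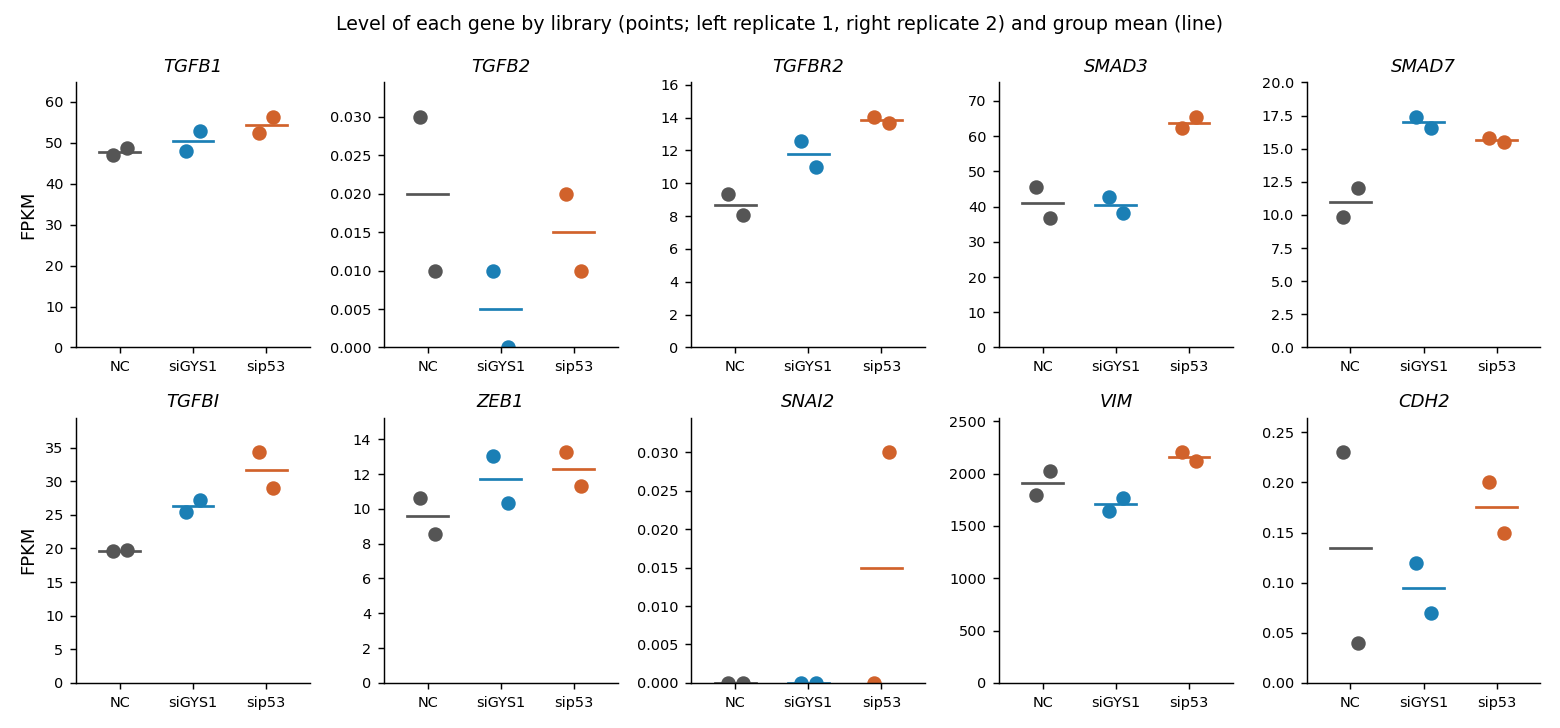
FPKM of each member (vertical axis, from 0, with its own scale per panel) in the NC, siGYS1 and sip53 libraries; points are libraries and lines are group means. Both SMAD3 points of sip53 (62.21 and 65.47) lie above all 4 others, and both SMAD7 points of each knockdown lie above both NC points.

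With siGYS1, 3 of the 8 tested members rose and the other 5 did not pass. Those that rose were SMAD7, TGFBI and TGFBR2, by 1.41 to 1.58 times. Of all 13235 genes tested, 19.7% were called in either direction at an adjusted p below 0.05, and 10.4% were called higher. With the replicate number as a block 35.2% were called and 19.1% higher, and 4 members passed. The median log2 fold change was 0.23 over the 8 members and -0.01 over all genes.

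SMAD7, the inhibitor, was at 9.87 and 12.04 FPKM with NC, 17.4 and 16.59 with siGYS1 and 15.84 and 15.51 with sip53. Every knockdown library was above both NC libraries. SMAD7 rose by a log2 fold change of 0.66 with siGYS1 (SE 0.09, 1.58-fold, adjusted p = 0.00128).

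TGFBI, which encodes a secreted matrix protein, was at 19.56 and 19.7 FPKM with NC, 25.4 and 27.23 with siGYS1 and 34.31 and 28.97 with sip53. The 3 groups did not overlap. Its log2 fold change with siGYS1 was 0.55 (SE 0.09, 1.46-fold, adjusted p = 0.00289). SMAD7 and TGFBI kept this call in all 16 alternative fits.

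TGFBR2, the ligand-binding receptor, was at 9.36 and 8.05 FPKM with NC, 12.57 and 11.01 with siGYS1 and 14.04 and 13.68 with sip53. Again no library of one group reached another group. The log2 fold change with siGYS1 was 0.50 (SE 0.11, 1.41-fold, adjusted p = 0.0118). This call was lost without NC replicate 2 (0.40, adjusted p = 0.115) and with limma on log2(FPKM + 1) (0.40, adjusted p = 0.0507).

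ZEB1, a repressor of epithelial genes, was at 10.64 and 8.54 FPKM with NC, 13.02 and 10.36 with siGYS1 and 13.25 and 11.33 with sip53. The lower siGYS1 library lay between the NC libraries, and each siGYS1 library was above the NC library of its own number. ZEB1 did not pass with siGYS1 (log2 fold change 0.34, 95% interval 0.02 to 0.66, adjusted p = 0.127). It passed with the replicate block (0.34, adjusted p = 0.00276) and without siGYS1 replicate 2 (0.52, adjusted p = 0.00419). TGFB1 (0.12, adjusted p = 0.37), VIM (-0.10, adjusted p = 0.456) and SMAD3 (-0.08, adjusted p = 0.544) did not pass either. The 95% interval was -0.08 to 0.32 for TGFB1, -0.30 to 0.10 for VIM and -0.27 to 0.11 for SMAD3. SMAD3 was called lower once offsets for transcript length were used (-0.23, adjusted p = 0.0121).

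With sip53, 7 of the 8 tested members rose, all but CDH2. In this comparison 49.9% of all genes were called in either direction and 23.4% higher. The median log2 fold change was 0.49 over the members and -0.03 over all genes. The comparison uses the same NC libraries as that of siGYS1, so the values of both are given side by side and their likeness is not counted as a result.

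SMAD3, which carries the signal into the nucleus, was at 45.47 and 36.77 FPKM with NC, 42.66 and 38.32 with siGYS1 and 62.21 and 65.47 with sip53. Both sip53 libraries were above the other 4, and the NC and siGYS1 libraries overlapped. In reads these were 4194 and 3812, 3634 and 3543, and 6583 and 6674. SMAD3 rose by a log2 fold change of 0.82 (SE 0.09, 1.77-fold, adjusted p = 5.44e-05).

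TGFBI rose by 0.81 on the log2 scale with sip53 (SE 0.09, 1.75-fold, adjusted p = 6.06e-05). TGFBR2 rose by 0.77 (SE 0.11, 1.70-fold, adjusted p = 0.000288). For SMAD7 the rise was 0.54 (SE 0.09, 1.45-fold, adjusted p = 0.00082). These 3 genes and SMAD3 kept their call in all 16 alternatives.

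The other 3 rises with sip53 were smaller, and their calls were lost in part of the alternatives. None of VIM, ZEB1 and TGFB1 passed with limma on log2(FPKM + 1) or log2(FPKM + 0.1), with adjusted p from 0.0982 to 0.264. By edgeR with upper-quartile factors, VIM and TGFB1 did not pass (adjusted p = 0.0972 and 0.0876). VIM was at 1790.55 and 2028.29 FPKM with NC, 1642.36 and 1766.96 with siGYS1 and 2202.62 and 2119.77 with sip53, so that sip53 lay above NC and siGYS1 below it. Its log2 fold change with sip53 was 0.28 (SE 0.09, adjusted p = 0.0237), and it no longer passed when NC replicate 1 was left out (0.19, adjusted p = 0.167). Leaving out sip53 replicate 1 or 2 gave VIM a log2 fold change of 0.26 or 0.3, and neither passed. ZEB1 rose by 0.44 (SE 0.14, adjusted p = 0.0292). It fell short of the threshold when NC replicate 2 (0.29, adjusted p = 0.191) or sip53 replicate 1 was left out (0.32, adjusted p = 0.223).

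TGFB1, the higher of the 2 ligands among the members, was at 46.89 and 48.8 FPKM with NC, 48.09 and 52.87 with siGYS1 and 52.38 and 56.31 with sip53. Both sip53 libraries and siGYS1 replicate 2 lay above both NC libraries, while siGYS1 replicate 1 lay between them. The log2 fold change with sip53 was 0.27 (SE 0.09, adjusted p = 0.0291). Without any 1 of the NC or sip53 libraries it was not called, although its log2 fold change stayed between 0.23 and 0.32.

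The direct contrast of siGYS1 with sip53 tests where the knockdowns differ and does not use the NC level. SMAD3, VIM and TGFBI were lower with siGYS1, and the other 5 tested members did not pass. Of all genes, 43.4% were called in this contrast and 20.9% lower with siGYS1, and the median log2 difference was -0.27 over the members and 0.01 over all genes. SMAD3 had the largest difference among the called members, -0.90 on the log2 scale (SE 0.09, 95% interval -1.10 to -0.71, adjusted p = 3.94e-05), which held in all 16 alternatives.

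VIM was called lower with siGYS1 in 13 of 16 alternatives, but not without sip53 replicate 1 (-0.36). Nor did it pass with limma on log2(FPKM + 1) or log2(FPKM + 0.1) (adjusted p = 0.058 and 0.0536). With all libraries, the edgeR difference of VIM was -0.38 (SE 0.09, adjusted p = 0.00653). That of TGFBI was -0.26 (SE 0.08, adjusted p = 0.0333) and passed in 7 of 16 alternatives, with adjusted p of 0.0627 to 0.191 in the fits without 1 of the NC or sip53 libraries and 0.0786 without siGYS1 replicate 1. TGFBR2 did not pass (-0.27, 95% interval -0.51 to -0.04, adjusted p = 0.059), but did with the replicate block (-0.28, adjusted p = 0.00741) and without siGYS1 replicate 1 (-0.37, adjusted p = 0.0151). For SMAD7 the difference was 0.12 (95% interval -0.07 to 0.32, adjusted p = 0.278), for ZEB1 -0.10 (-0.42 to 0.22, adjusted p = 0.601) and for TGFB1 -0.15 (-0.35 to 0.05, adjusted p = 0.198).

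**Figure D2:**
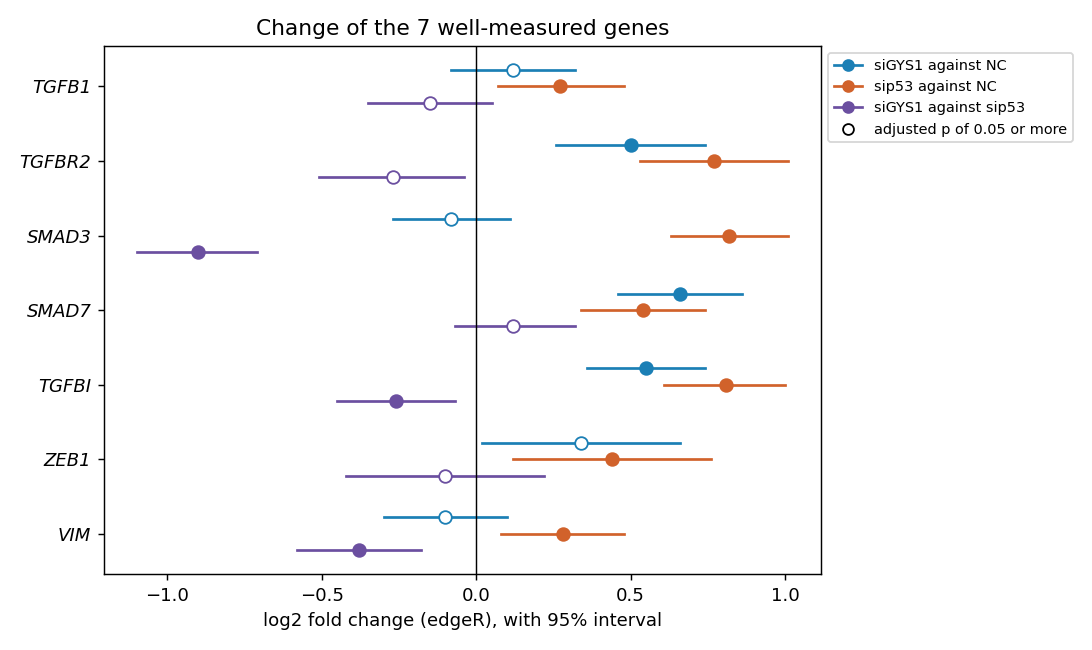
Log2 fold change (horizontal axis) of the 7 well-measured members in each of 3 comparisons, with 95% intervals; filled points passed the edgeR test and open points did not. SMAD3 is at 0.82 with sip53 and at -0.08 with siGYS1, whereas the intervals of SMAD7 overlap.

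Ratios between members within a library, from FPKM, show the same contrast. SMAD3 was 4.61 and 3.05 times SMAD7 with NC, 2.45 and 2.31 times with siGYS1, and 3.93 and 4.22 times with sip53. The siGYS1 libraries had the lowest ratios, while NC and sip53 overlapped in FPKM. In reads, SMAD3 had 4194 and 3812 against 513 and 548 of SMAD7 with NC. With sip53 these were 6583 and 6674 against 725 and 717. By reads both sip53 ratios lay above both NC ratios, so the overlap depended on the unit. SMAD3 over SMAD2, its partner transducer, was 0.462 and 0.442 with NC, 0.382 and 0.39 with siGYS1 and 0.776 and 0.901 with sip53, with no overlap between groups. No test was made of these ratios.

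The size of the SMAD3 change differed between fits on counts and fits on FPKM. Dividing a library's count by its FPKM gives the transcript length that the authors' FPKM implies. For SMAD3 this length was 5161 and 5729 bases with NC, 4889 and 5142 with siGYS1 and 5898 and 5655 with sip53, a range of 18.6% of the mean. It was also variable for SMAD7 (14.9%) and TGFBI (13.7%), while VIM, ZEB1, TGFB1 and TGFBR2 stayed within 0.491% to 1.69%. Over genes with an FPKM of at least 5 in every library the median range was 5.88%. The 90th percentile was 20.7%, above the range of SMAD3. The limma fits on log2(FPKM + 0.1) or log2(FPKM + 1) gave SMAD3 a smaller rise with sip53, down to 0.63 in place of 0.82. These fits used no TMM scaling, so the unit was not their only difference. On log2(FPKM + 0.1) the median of all genes with sip53 was -0.115 in place of -0.029. VIM, whose length was stable, rose by 0.18 in place of 0.28. The part of length in the smaller SMAD3 rise was not tested. Which transcripts the length reflects was not tested.

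**Figure D3:**
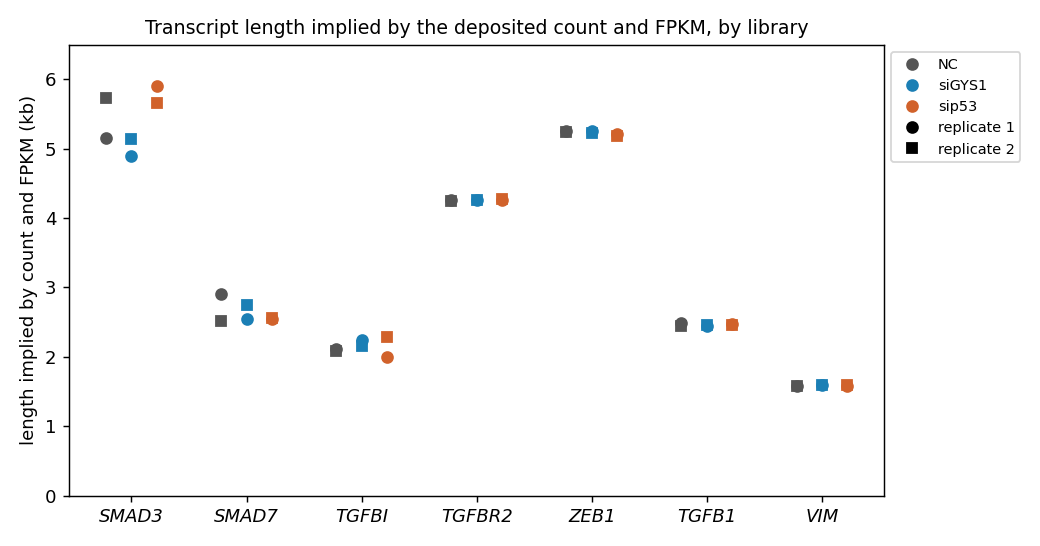
Transcript length in kb (vertical axis, from 0) implied by count and FPKM in each library, by member; circles are replicate 1 and squares replicate 2. SMAD3 runs from 4889 to 5898 bases, and TGFBR2 from 4249 to 4270.

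Further genes of the pathway came from lists of ligands, receptors, SMADs and so on, and up to 3 of the largest called changes per list and knockdown are named. For comparison with the list counts, of all 13235 genes tested 1379 rose and 1223 fell with siGYS1. With sip53, 3103 rose and 3502 fell. The calls of 12 of the 29 named with siGYS1, and of 31 of the 41 named with sip53, held without each library in turn. Among ligands, 2 of 6 tested genes rose and 1 fell with siGYS1 (median -0.44), and 3 rose and 2 fell with sip53 (median -0.03). Leaving out NC replicate 1 or either library of sip53 ended both falls with sip53 and the fall with siGYS1, and 1 rose with siGYS1 without either NC library. The falls with siGYS1 were 2 without NC replicate 2 or with the replicate block. INHBA, which encodes an activin subunit, was at 16.78 and 15.11 FPKM with NC, 45.23 and 33.46 with siGYS1 and 68.0 and 52.94 with sip53. The groups were apart, and INHBA rose by 1.36 with siGYS1 (SE 0.16, adjusted p = 0.000605) and 2.02 with sip53 (SE 0.16, adjusted p = 9.63e-06). GDF15, a stress-induced member of the family, rose by 0.44 and 0.90, and its siGYS1 call was lost without either NC library (highest adjusted p = 0.0543). BMP4, a bone morphogenetic protein, fell by 0.77 with siGYS1 and by 0.60 with sip53, both lost without NC replicate 1 or either sip53 library. NODAL fell by 1.47 with sip53 on 3 to 19 reads, lost without the same libraries.

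Among 11 other receptors and co-receptors, 3 rose with siGYS1 and the rest did not pass (median 0.02), with 1 rise left without NC replicate 2, and 5 rose and 1 fell with the replicate block. With sip53, 6 rose and 1 fell (median 0.33), but 2 rose without NC replicate 2 or either sip53 library, and 4 without NC replicate 1. TGFBR3, the co-receptor betaglycan, rose by 1.00 with siGYS1 (adjusted p = 0.017) and 1.21 with sip53 (adjusted p = 0.00191), the first lost without NC replicate 2. ACVR2B, an activin receptor, rose by 0.93 with siGYS1. TGFBR1, the type I receptor that TGFBR2 recruits, rose by 0.44 with siGYS1, a call that was lost without 5 of the 6 libraries in turn. It rose by 0.31 with sip53 (adjusted p = 0.0455). BMPR1A, a BMP receptor, fell by 1.48 with sip53 (SE 0.10, adjusted p = 4.35e-06), and BMPR1B rose by 1.12 on 6 to 19 reads, a call lost without any 1 NC or sip53 library. TGFBR2 to TGFBR1 ratios were 0.639 and 0.601 with NC, 0.632 and 0.671 with siGYS1, and 0.809 and 0.833 with sip53.

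None of the 6 other SMADs passed with siGYS1 by edgeR, where 2 were higher at an unadjusted p below 0.05 and DESeq2 called 1 higher. Without siGYS1 replicate 2, edgeR called 3 higher, and with the replicate block 2. SMAD5, which carries BMP signals, had the smallest p (0.45, adjusted p = 0.0729) and passed with the block (0.44, adjusted p = 0.000271). With sip53, SMAD5 (-0.60), SMAD1 (-0.53) and SMAD2 (-0.32) fell while SMAD3 rose. The falls of SMAD5 and SMAD2 were lost without NC replicate 1 or sip53 replicate 2, and that of SMAD2 also without sip53 replicate 1. Of the genes that hold TGF-beta latent or release it, 2 of 9 rose and 4 fell with siGYS1, and 3 rose and 5 fell with sip53. Without NC replicate 1 or 2, 2 fell with siGYS1, and the 2 rises came down to 1 or fewer without any library but siGYS1 replicate 2. Without NC replicate 1 or either sip53 library 3 fell with sip53, and 1 rose without NC replicate 2. THBS1, thrombospondin 1, an activator of latent TGF-beta, was at 69.39 and 65.96 FPKM with NC, 35.37 and 30.46 with siGYS1 and 6.25 and 6.45 with sip53. It fell by 0.99 with siGYS1 (adjusted p = 0.000217) and 3.31 with sip53 (adjusted p = 8.61e-08), with groups far apart. LTBP3, a latent TGF-beta binding protein, fell by 0.40 with siGYS1, a call lost without either NC library, and by 1.92 with sip53. ITGB8, an integrin subunit that releases TGF-beta, fell by 0.95 with siGYS1 and 0.58 with sip53 (adjusted p = 0.0115 with sip53). NRROS, which anchors latent TGF-beta, rose by 1.53 with siGYS1 on 13 to 54 reads, lost without either NC library, and by 1.72 with sip53.

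Of 13 antagonists and feedback regulators, 5 rose with siGYS1 (3 without NC replicate 1 or either sip53 library), with 1 fall under the replicate block, and 6 rose and 1 fell with sip53. The medians were 0.26 and 0.39. NEDD4L, a ubiquitin ligase that targets SMADs, rose by 0.62 with siGYS1 and 0.87 with sip53. SKI, a SMAD corepressor, rose by 0.59 with siGYS1 and 0.40 with sip53. SMURF1, another ubiquitin ligase, rose by 0.51 with siGYS1 and was not called with sip53. PMEPA1, an inhibitor induced by TGF-beta, rose by 0.90 with sip53. Its FPKM was 16.01 and 14.59 with NC and 22.82 and 21.71 with siGYS1, on 947 and 958 reads and 928 and 1026 reads, so FPKM and counts of this gene disagree. DCN, decorin, had 3 to 7 reads in each of the NC and siGYS1 libraries and 70 and 57 with sip53 (log2 fold change 4.23). NC replicate 2 listed DCN at 6.97 FPKM on 4 reads, an FPKM out of step with its count. Among 17 genes listed as TGF-beta-induced targets, 2 rose and 4 fell with siGYS1, and 7 rose and 5 fell with sip53. Their medians were 0.03 and 0.24. Whether TGF-beta induces each of these genes in this line was not tested. With siGYS1, 1 rose without either NC or either sip53 library and 4 without siGYS1 replicate 2 or with the replicate block, while the falls came down to 1 when NC replicate 2 was left out and to 2 when either library of sip53 was. COL4A1, a basement membrane collagen, rose by 0.97 with siGYS1 and 0.44 with sip53 (adjusted p = 0.0146 with sip53). TAGLN, a smooth muscle actin-binding protein, fell by 1.23 with siGYS1, lost without NC replicate 2. ITGB3, an integrin subunit, rose by 1.77 and FN1, fibronectin, by 1.28 with sip53, while ID1, an inhibitor of differentiation, fell by 0.76 with siGYS1 and 1.28 with sip53.

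**Figure D4:**
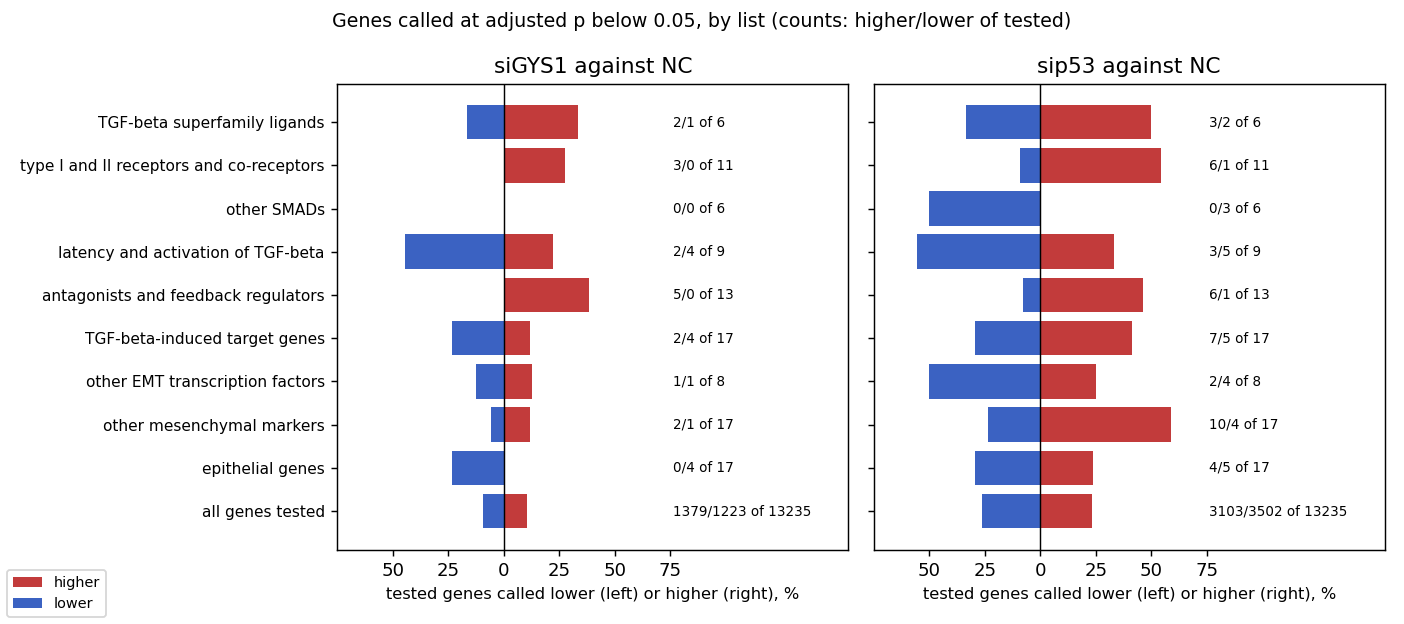
Share of tested genes called lower (left) or higher (right), in percent, in 9 pathway or state lists and over all genes, for each knockdown against NC; the counts beside the bars are higher/lower of tested. The other mesenchymal markers were 10 higher and 4 lower of 17 with sip53, and 2 higher and 1 lower of 17 with siGYS1.

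Mesenchymal and epithelial genes outside the members moved in both directions. Of 17 other mesenchymal markers, 10 rose and 4 fell with sip53 (median 0.75), and 2 rose and 1 fell with siGYS1 (median -0.10). The count of 10 was the same without each library in turn. With the replicate block 3 rose and 3 fell with siGYS1. ITGA5, the fibronectin receptor subunit, was at 10.28 and 8.32 FPKM with NC, 13.96 and 14.87 with siGYS1 and 59.1 and 58.2 with sip53, and rose by 0.79 and 2.84. CDH6, a cadherin, rose by 2.22 and TNC, tenascin C, by 1.5 with sip53. FOSL1, an AP-1 subunit, rose by 0.68 with siGYS1 and was higher still with sip53. Its FPKM was 35.09 and 36.84 with NC, 56.68 and 54.11 with siGYS1 and 73.23 and 80.42 with sip53. In the direct contrast, 11 of the 17 markers were called lower with siGYS1 than with sip53 and 3 were called higher. Of all 13235 genes tested, 2766 were called lower in this contrast and 2979 higher.

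Among 8 other EMT transcription factors, 1 rose and 1 fell with siGYS1 (2 fell with the replicate block), and 2 rose and 4 fell with sip53 (2 fell without NC replicate 1). ZEB2, a relative of ZEB1, had 12 and 20 reads with NC, 36 and 28 with siGYS1 and 103 and 109 with sip53. It rose by 1.07 with siGYS1, a call lost without 5 of the 6 libraries in turn, and by 2.81 with sip53 (SE 0.26, adjusted p = 2.52e-05). TWIST1, which drives EMT in development, fell by 0.67 with siGYS1, lost without NC replicate 2, and by 1.27 with sip53, and FOXC1, a forkhead factor, rose by 0.74 with sip53.

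Of 17 tested epithelial genes, 4 fell with siGYS1 and the rest did not pass (median -0.03), but no gene of the list was lower without NC replicate 2. By edgeR 2 were higher at an unadjusted p below 0.05, DESeq2 called 2 lower and none higher, and edgeR called 3 higher without siGYS1 replicate 2 and 1 with the replicate block. KRT19, KRT18 and KRT8, keratins, fell by 1.52, 0.55 and 0.49, and all 3 calls were lost without NC replicate 2, that of KRT19 also without NC replicate 1 or siGYS1 replicate 1. With sip53, 4 rose and 5 fell (median 0.15), close to the shares over all genes (3103 higher and 3502 lower of 13235). The falls were fewer when NC replicate 2 or either sip53 library was left out. Under the replicate block, 6 rose and 7 fell with sip53, while 59.6% of all genes were called and 28.3% called higher. CDH1, E-cadherin, was at 2.14 and 1.65 FPKM with NC, 1.71 and 1.5 with siGYS1 and 0.9 and 0.73 with sip53, and fell by 1.03 with sip53. EPCAM, an epithelial adhesion molecule, fell by 1.54 and CLDN4, a tight junction claudin, rose by 2.15. VIM stood 837 and 1230 times above CDH1 with NC, 960 and 1180 with siGYS1 and 2450 and 2900 with sip53.

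**Figure D5:**
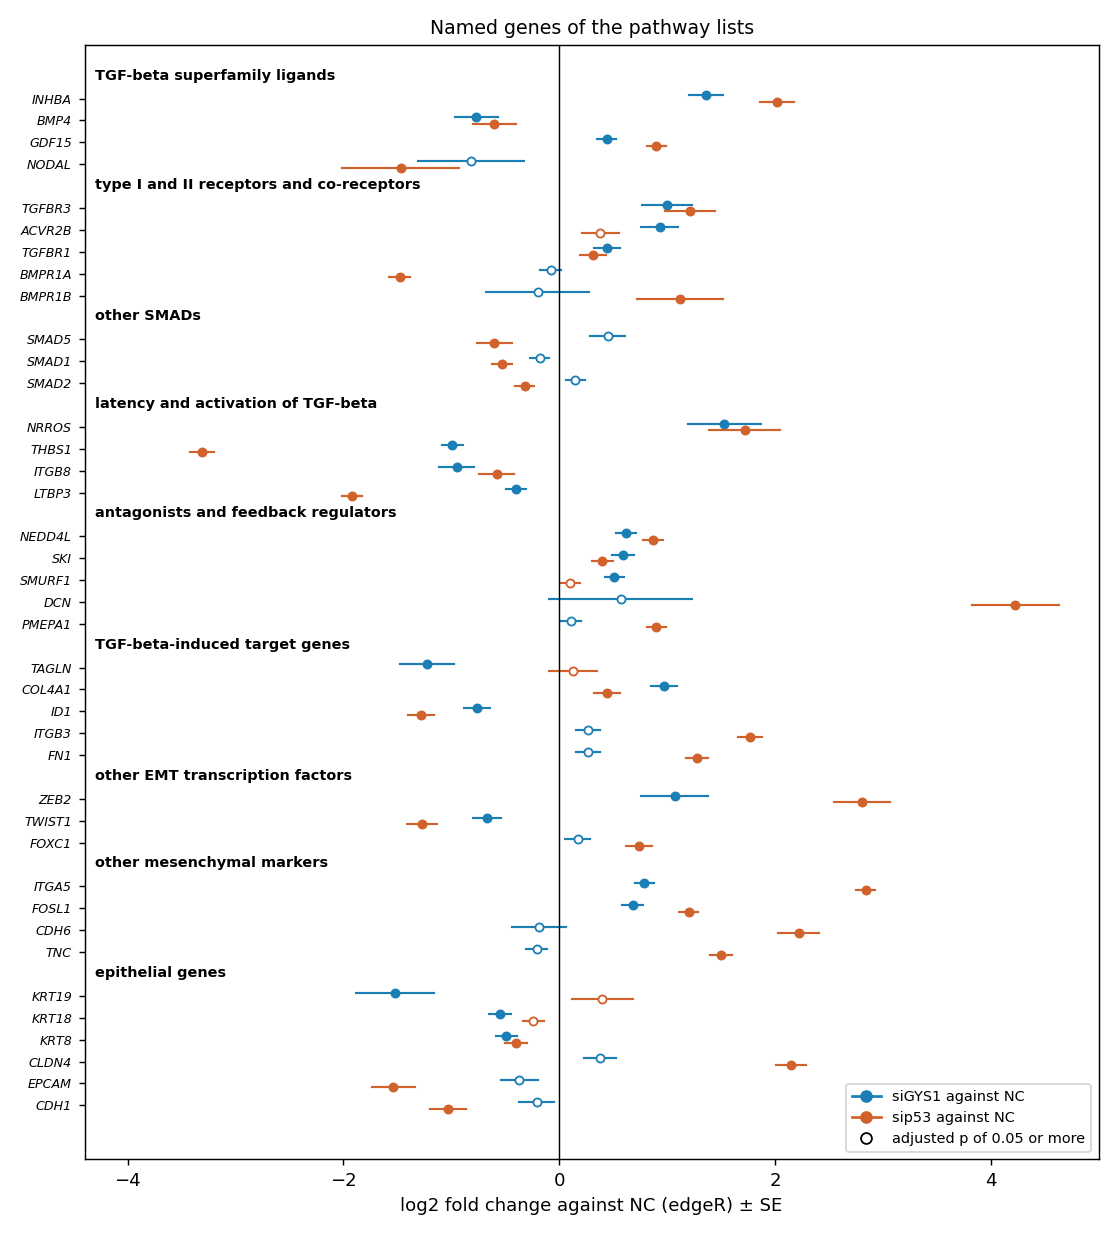
Log2 fold change against NC ± SE (horizontal axis) of the named genes of the pathway lists, for siGYS1 and sip53; filled points passed the edgeR test. THBS1 is the farthest left at -3.31 with sip53, and DCN the farthest right at 4.23.

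Markers of fibroblasts and of endothelium were at low levels, while some of leukocytes and mesothelium were not. Fibroblast markers summed to 0.54 to 1.53 FPKM over 6 genes, with FAP and LUM at no more than 0.09 FPKM in any library, and endothelial markers summed to 0.63 to 1.95 over 6 genes, with VWF, EMCN and CLDN5 at no more than 0.03. Of the 2 tested fibroblast and 3 tested endothelial genes none passed with siGYS1 by edgeR or DESeq2, with 1 fibroblast gene higher at an unadjusted p below 0.05 and no endothelial gene. The fibroblast gene MFAP5 had the smallest p (1.61, adjusted p = 0.122), and among endothelial genes ESAM did (-0.50, adjusted p = 0.475). With sip53 MFAP5 rose by 2.47 on 2 to 17 reads, lost without sip53 replicate 2, and PDGFRA fell by 0.72, lost without 5 of 6 libraries, while PECAM1 rose by 2.05 and CDH5 by 1.51, the latter lost without NC replicate 2 or sip53 replicate 1.

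Leukocyte markers summed to 28.3 to 32.5 FPKM, mostly LAPTM5 (15.27 and 16.16 with NC) and CORO1A (9.13 and 10.18), and TYROBP was at no more than 0.19. LAPTM5 was thus above SMAD7, ZEB1 and TGFBR2 in both NC libraries. CORO1A fell by 0.71 with siGYS1, lost without NC replicate 2, and by 0.54 with sip53, lost without NC replicate 2 or either sip53 library. With sip53 CD68 rose by 0.81 and ITGAM by 0.71, the latter lost without NC replicate 2 or sip53 replicate 1. Mesothelial markers summed to 9.69 to 15.8 FPKM, mostly MSLN (11.75 and 13.92 with NC), with LRRN4 (-0.82) and MSLN (-0.46) lower with siGYS1 in calls that were each lost without 5 of 6 libraries, and WT1 lower by 1.73 with sip53, lost without sip53 replicate 2.

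Clear cell carcinoma markers, which check the label of the line, summed to 3790 and 3960 FPKM with NC, 3040 and 3310 with siGYS1 and 1070 and 947 with sip53. Most of each sum was SPP1, osteopontin, at 3396.43 and 3577.85 with NC, 2675.69 and 2938.02 with siGYS1 and 726.1 and 611.86 with sip53. The other 7 markers summed to 390.0 and 382 with NC, 360.0 and 367 with siGYS1 and 344 and 335 with sip53. AGR2 fell by 2.01 and 2.11, GPC3 by 0.38 and 2.01, and SPP1 by 2.30 with sip53, and CEACAM1 rose by 0.82 with siGYS1, lost without NC replicate 2. The siGYS1 call of GPC3 was lost without 5 of 6 libraries. Mitochondrially encoded MT-CO2 fell by 0.34 with siGYS1, lost without 4 of 6 libraries, and with sip53 MT-CO3 fell by 0.62 and MT-CO1 by 0.42 while MT-ND2 rose by 0.41. The part of these shifts in the members' changes was not tested. In bulk RNA, fewer cells of a kind and less RNA per cell cannot be told apart.

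Short words in 3′ UTRs that an earlier account of these data tied to changes with either siRNA were counted in the members. SMAD3 holds GTCCTCT 3 times in 4662 bases, a word found in 12.7% of 13036 genes, and the median log2 fold change of those genes was -0.06 with siGYS1 and 0.02 with sip53. Genes without it had medians of -0.0 and -0.04. TGFBR2 and SNAI2 hold TGTTTAC 1 time each and VIM holds GTTTACA 2 times. Genes with TGTTTAC had a median of 0.13 with siGYS1 and 0.08 with sip53, and those without it -0.04 and -0.05. SMAD7 holds AGAGAAA and AAGAGAA 1 time each and ZEB1 holds AGAGAAA 1 time, and genes with AGAGAAA had a median of 0.08 with siGYS1 and -0.09 with sip53. TGFBI, TGFB1, TGFB2 and CDH2 hold none of the 5 words. Because the words were picked from changes in these same data, a gap between these medians is no separate evidence. The 3′ UTR of SMAD3 is also longer than the median of 1350 bases over the 13036 genes, which leaves more room for any word. The part of these words in the members' changes was not tested.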

How the data were processed

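Per the file headers, the authors' deposited table holds a read count, a normalized read count, TPM and FPKM for each library. The deposited read counts are expected counts, since 16.8% to 18.1% of values per library are not whole (tolerance 1e-09), and the authors' normalized read count is a signal equal to the rounded-up count times 1 constant per library (0.944 to 1.03). The deposited TPM sum to 1000000 within rounding. TPM and normalized counts were used for checks only. The submitters' processing notes name quality and trimming tools (cutadapt, FastQC, Trimmomatic), aligners (HISAT2, STAR, TopHat) and counting or testing tools (featureCounts, HTSeq, Salmon, edgeR, DESeq2) without roles, so the tool behind the table is unknown here. They also name the mouse build mm10, although 16830 of 16910 identifiers are in human GENCODE 29.

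After rounding, the expected counts went through filterByExpr (minimum count 10), TMM scaling, glmQLFit and glmQLFTest in edgeR 4.0.16 under R 4.3.3. A single model of group covered the 6 libraries (3 residual degrees of freedom). The filter left 13235 genes and removed 3675. Called means a Benjamini-Hochberg adjusted p below 0.05 over all genes tested. SE is the absolute log2 fold change over the square root of F, and 95% intervals use 9.67 degrees of freedom. Levels are FPKM, and fold changes come from counts. Alternatives used DESeq2 1.42.0, limma 3.58.1, other scalings and filters, a replicate block, length offsets and leaving out each library. The procedure was tested on simulated data. The labels give replicate numbers but no shared origin. Half-differences between replicates 1 and 2 correlated across 11187 genes at 0.591 between NC and siGYS1, 0.118 between NC and sip53 and 0.265 between the knockdowns. All exceed 0.1, so values with the replicate number as a block stand beside members and named genes whose call they change. They are given for part of the list counts. Named genes are the 10 members, GYS1, and per list and knockdown up to 3 called genes with the largest absolute change, or else the gene with the smallest p. The members and lists were chosen with earlier results of these data known, and list counts without each library or with the block were added after seeing the data. The target of sip53 and 1 gene of the lists are not reported here. Strand-specific counting is not stated, so reads of antisense genes such as VIM-AS1 and ZEB1-AS1 cannot be told apart from VIM and ZEB1. RefSeq windows (GRCh38.p14) matched 9 of 10 members, and that of SNAI2 was not used.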

Additional observations from a re-analysis of the deposited data

How the results depend on the processing

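Over the 8 tested members and 3 comparisons, 333 alternative values stayed on their side of the threshold, 31 fell short of it and 8 newly passed. Of the 333, 4 had the other sign, none of them called in either fit: CDH2 with siGYS1 (0.84 without NC replicate 1) and sip53 (-0.43 without NC replicate 2), and ZEB1 between the knockdowns (0.06 without siGYS1 replicate 2, 0.02 without sip53 replicate 1). Genes called with siGYS1 against NC numbered 2602, against 4098 with length offsets and 1577 with both compared groups alone, and 926 to 4260 without 1 library (926 without NC replicate 2, 4260 without siGYS1 replicate 2). With sip53 against NC 6605 were called (4271 to 7621, lowest without sip53 replicate 1), and between the knockdowns 5745 (3416 to 6337). Members called were 3 with siGYS1 (2 to 4 without 1 library), 7 with sip53 (4 to 7, and 4 with limma on either FPKM scale) and 3 between the knockdowns (1 to 3, 1 with limma on either FPKM scale, 5 with length offsets). The share of calls that were higher with siGYS1 was 53%, against 38.6% with upper-quartile factors, 35.4% and 36.4% with limma on FPKM and 64.6% with DESeq2; with sip53 it was 47.0%, against 35.3% with limma on log2(FPKM + 1). On log2(FPKM + 0.1) the median of all genes with sip53 was -0.115.

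With the replicate block, genes called with siGYS1 numbered 4662, ZEB1 passed with siGYS1 (0.34, adjusted p = 0.00276) and TGFBR2 passed between the knockdowns (-0.28, adjusted p = 0.00741). It changed no other call of a tested member. Some list counts with sip53 grew under the block: 9 listed TGF-beta-induced targets and 7 receptors rose, and 3 ligands fell. The other mesenchymal markers stayed at 10 higher and 4 lower. With 2 libraries a group, changes of the size seen for TGFB1 and VIM were near the limit of what passed, and CDH2, TGFB2 and SNAI2 were limited by their read counts.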
